A study of Homo sapiens with 6 samples.

Results

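The genes described here are the 33 that carry glucose through glycolysis, lactate exchange, the entry of pyruvate into mitochondria and the pentose phosphate pathway, out of 38167 gene rows in the count table. They were chosen by gene symbol, with no measured value in the rule, but with earlier results of these data known. All 33 were found and passed the filter on low counts. Glycolysis takes up glucose through membrane transporters, splits it into 3-carbon sugars and ends in pyruvate. Pyruvate is then either reduced to lactate and exported with a proton, or carried into the mitochondrion and turned into acetyl-CoA by the pyruvate dehydrogenase complex. The pentose phosphate pathway branches off after the hexokinase step: its oxidative arm makes NADPH, and its non-oxidative arm exchanges carbon between ribose and the sugars of glycolysis. Squamous carcinomas are known for high glucose uptake, and several of these enzymes come as isoenzymes from separate genes that differ by tissue.

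The cells were Cal27, an established line from a human squamous cell carcinoma of the tongue, grown as spheroids by liquid overlay. One group lay in soft Matrigel (3 mg/mL) and the other in stiff Matrigel (12 mg/mL). Matrigel is a gel made from extracted basement membrane protein, so its concentration changes stiffness and the amount of matrix protein together, and these cannot be told apart. Both groups were harvested on day 14, and each had 3 libraries that the labels name biological replicates of 1 cell line. Since no label ties them to separate cultures or days, every p-value here reflects the scatter among these libraries, which may be technical. Library depth ran from 30656300 to 40583000 counted fragments. The squamous markers fixed for this check were all present: KRT5, KRT14, TP63, CDH1 and EPCAM summed to between 3401 and 3799 CPM (counts scaled to a fixed library size) in soft and between 12127 and 12790 in stiff. These sums are mostly KRT5 and KRT14, which rose, as did TP63, while CDH1 fell 1.36-fold (adjusted p = 0.00194) and EPCAM 1.26-fold (adjusted p = 0.011). Stiff replicate 2 stood apart from the other stiff libraries along transcript length, and the results it touches are given with and without it. In bulk RNA, a smaller share of expressing cells and less RNA per cell cannot be told apart.

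Most of the pathway from glucose uptake to lactate export was higher in stiff Matrigel, while pyruvate entry was split and most pentose phosphate genes did not pass the test. By edgeR's quasi-likelihood test with Benjamini-Hochberg adjustment over all 18676 genes tested (threshold 0.05), 21 of the 33 genes rose, 3 fell and 9 did not pass. Over all genes tested, 25.3% were called higher and 23.8% lower (49.1% either way), so the 63.6% of these genes called higher lies above the background and the 9.09% called lower lies under it. With each library's trend on transcript length removed, 7 were called lower, which is nearer the background. Among the 10812 genes whose mean reached 10 CPM, 27.8% were called higher and 27.3% lower. The median log2 fold change was 0.35 over the 33 genes and -0.00017 over all genes tested. All 3 stiff libraries lay above all 3 soft libraries for 22 of the 33 genes, against 30.3% of all genes, and below them for 4, against 29.6%. Most rises were modest: apart from SLC2A1, SLC2A3, ALDOC and ENO2, the 17 other genes that rose did so by 1.19-fold to 1.57-fold. A rise of at least 1.5-fold was called for 6 genes, against 13.9% of all genes, and one of at least 2-fold for 4, against 7.6%. Together the 33 genes took 1.35% ± 0.0556 (SD, n = 3) of all counted fragments in soft and 1.77% ± 0.0607 in stiff.

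**Figure D1:**
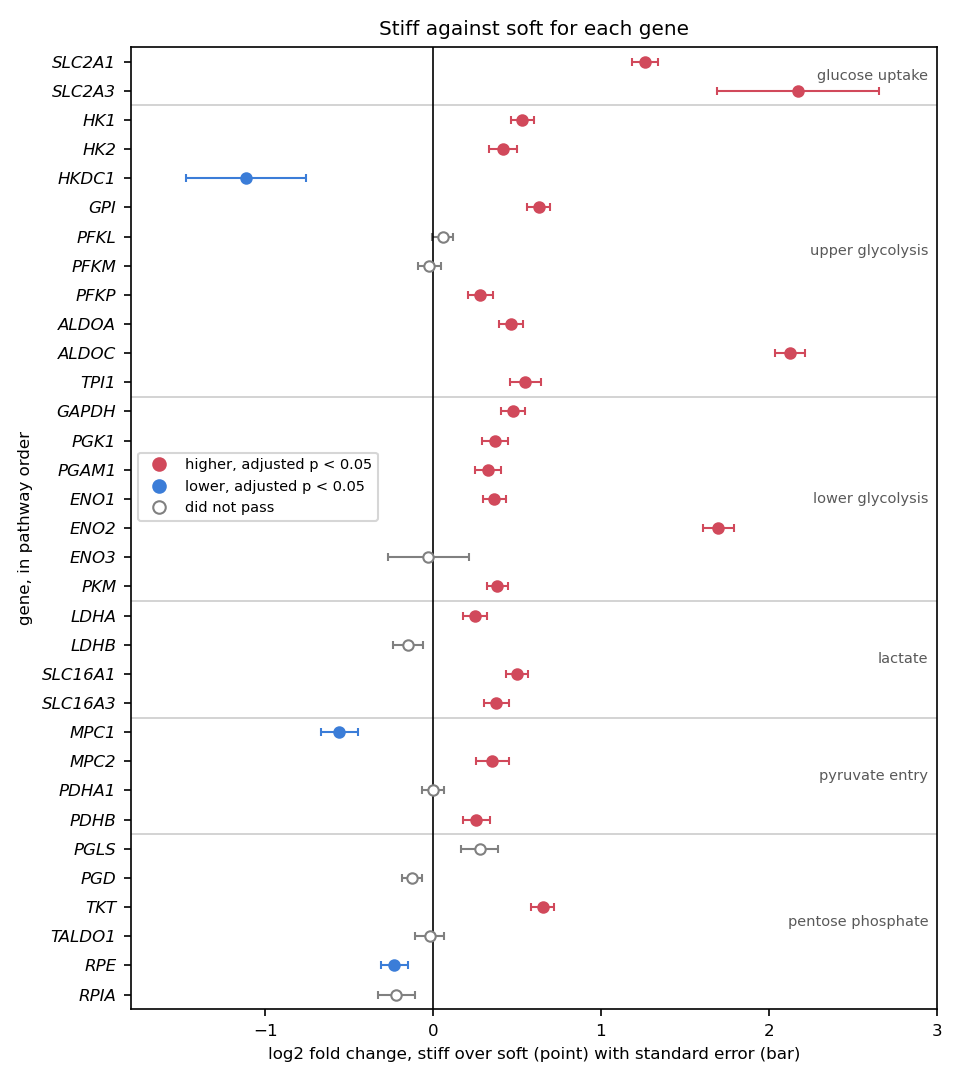
Log2 fold change of each of the 33 genes, stiff over soft (x axis, edgeR estimate with its standard error as the bar), with genes in pathway order on the y axis and filled points for those past an adjusted p of 0.05. ALDOC, ENO2, SLC2A1 and SLC2A3 lie farthest to the right, HKDC1 farthest to the left, and the pentose phosphate genes other than TKT lie between -0.23 (RPE) and 0.28 (PGLS).

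Both glucose transporters were higher in stiff Matrigel, and SLC2A1 carried nearly all of the transport signal. SLC2A1 encodes GLUT1, the widely expressed glucose transporter of epithelial and tumour cells. Its level was 460.4, 467 and 528 CPM in soft and 1221, 1164 and 1111 CPM in stiff. The groups were far apart, with a 2.40-fold rise (log2 fold change 1.26 ± 0.08 SE, adjusted p = 1.11e-06), which ranked 216 among all genes by p. SLC2A3 encodes GLUT3, a high-affinity transporter best known from neurons. It was close to the limit of detection, with 6, 2 and 6 fragments in soft and 28, 22 and 14 in stiff. All stiff libraries were above all soft ones, and the fitted rise was 4.51-fold (log2 fold change 2.17 ± 0.48, adjusted p = 0.00415). The ratio of summed fragments, 64 against 14, was 4.59 after allowing for library size (95% interval 2.55 to 8.87 by Clopper-Pearson, for counting error alone). Part of the SLC2A3 sequence is also found in SLC2A14 (18.0% of its 61-base windows), so reads of that pair can be split. A filter at 1 CPM in 3 libraries leaves SLC2A3 untested.

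Upper glycolysis spends ATP to turn glucose into triose phosphates. Here 7 of 10 genes rose (70%, against 25.3% of all genes tested). HKDC1 fell (10%, against 23.8%), and PFKL and PFKM did not pass. Hexokinases trap glucose in the cell by phosphorylating it. HK1 was 194, 184 and 181 CPM in soft and 284, 255 and 269 CPM in stiff, a rise of 1.45-fold (log2 0.53 ± 0.07, adjusted p = 0.000144). HK2, the inducible form common in tumours, was 114, 116 and 118 CPM in soft and 174, 144 and 145 CPM in stiff, a rise of 1.33-fold (adjusted p = 0.00233). Neither gene's groups overlapped, and for both the highest library was stiff replicate 1. HKDC1, a hexokinase-like gene, fell, but on very few fragments: 30, 15 and 17 in soft and 10, 8 and 10 in stiff. Its fitted fold was 2.17 lower (log2 -1.11 ± 0.36, adjusted p = 0.0248), and the ratio of summed fragments, soft over stiff, was 2.20 with a 95% interval of 1.39 to 3.58. Its call was lost in each of the fits without soft replicate 1, soft replicate 3 or any 1 of the stiff libraries, with an adjusted p of 0.0522 to 0.127.

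GPI, which converts glucose-6-phosphate to fructose-6-phosphate, was 453, 481 and 512 CPM in soft and 773, 741 and 722 CPM in stiff. Its rise of 1.55-fold (log2 0.63 ± 0.07, adjusted p = 5.74e-05) was larger than the spread in either group. The next step is phosphofructokinase, the committed and most regulated reaction of glycolysis, and here the isoenzymes differed. PFKP, the platelet type, rose 1.22-fold (adjusted p = 0.0109) from 122, 126 and 129 CPM to 152, 141 and 166 CPM, and the call was lost without soft replicate 1 (adjusted p = 0.0555). PFKL, the liver type and the most abundant of the family per kilobase, was 269.7, 268 and 284 CPM in soft and 279, 296 and 280.5 CPM in stiff. Those groups overlapped and the difference did not pass (log2 0.06 ± 0.06, adjusted p = 0.477). PFKM, the muscle type, was 51.4, 47.9 and 49.7 CPM in soft and 49.6, 47.4 and 49.8 CPM in stiff, with an adjusted p of 0.809.

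The aldolase and triosephosphate isomerase steps, which yield the triose phosphates, rose clearly. ALDOC, the aldolase known from brain, had the smallest p of the 33 genes and ranked 36 among all genes tested. Its level was 57.3, 59.9 and 68.1 CPM in soft and 259, 295 and 256 CPM in stiff, a 4.37-fold rise (log2 2.13 ± 0.09, adjusted p = 1.97e-07). ALDOA, the main aldolase of most tissues, rose less in relative terms, by 1.38-fold (adjusted p = 0.000559), from 1733, 1886 and 1954 CPM to 2505, 2722 and 2462 CPM. TPI1 was 418, 429 and 459 CPM in soft and 586, 732 and 595 CPM in stiff. The 1.46-fold rise of TPI1 (adjusted p = 0.000811) includes a high value in stiff replicate 2, and the other stiff libraries were also above every soft one.

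In lower glycolysis, which makes ATP and pyruvate, 6 of 7 genes rose (85.7%, against 25.3% of all genes tested) and ENO3 did not pass. GAPDH, which makes the NADH of glycolysis, was 1882, 2057 and 2138 CPM in soft and 2748, 2911 and 2805 CPM in stiff. Its rise of 1.39-fold (log2 0.48 ± 0.07, adjusted p = 0.000362) was seen in all 3 stiff libraries. PGK1, the first ATP-making kinase, went from 681, 752 and 809 CPM to 934, 1027 and 933 CPM, a 1.29-fold rise (adjusted p = 0.00363). PGAM1, a mutase that shifts the phosphate, rose 1.26-fold (adjusted p = 0.0052). Since 41.1% of the 61-base windows of PGAM1 and 24.9% of those of TPI1 also occur in other transcripts, mainly pseudogenes, part of their counts may be shared with these.

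ENO2, the enolase known as a neuronal marker, stood out in this section of the pathway. It was 33.9, 37.0 and 43.0 CPM in soft and 125, 126 and 118 CPM in stiff, a 3.25-fold rise (log2 1.70 ± 0.09, adjusted p = 6.49e-07). ENO1, the enolase of most tissues, was 1454, 1564 and 1619 CPM in soft and 1945, 2068 and 1962 CPM in stiff, a 1.29-fold rise (adjusted p = 0.00155). ENO3, the muscle enolase, stayed between 1.40 and 2.57 CPM in all 6 libraries (adjusted p = 0.931). PKM, the pyruvate kinase of the last step, rose 1.30-fold (log2 0.38 ± 0.06, adjusted p = 0.000716) from 1865, 1877 and 1904 CPM to 2415, 2554 and 2385 CPM. A count per gene does not separate the M1 and M2 splice forms of PKM.

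**Figure D2:**
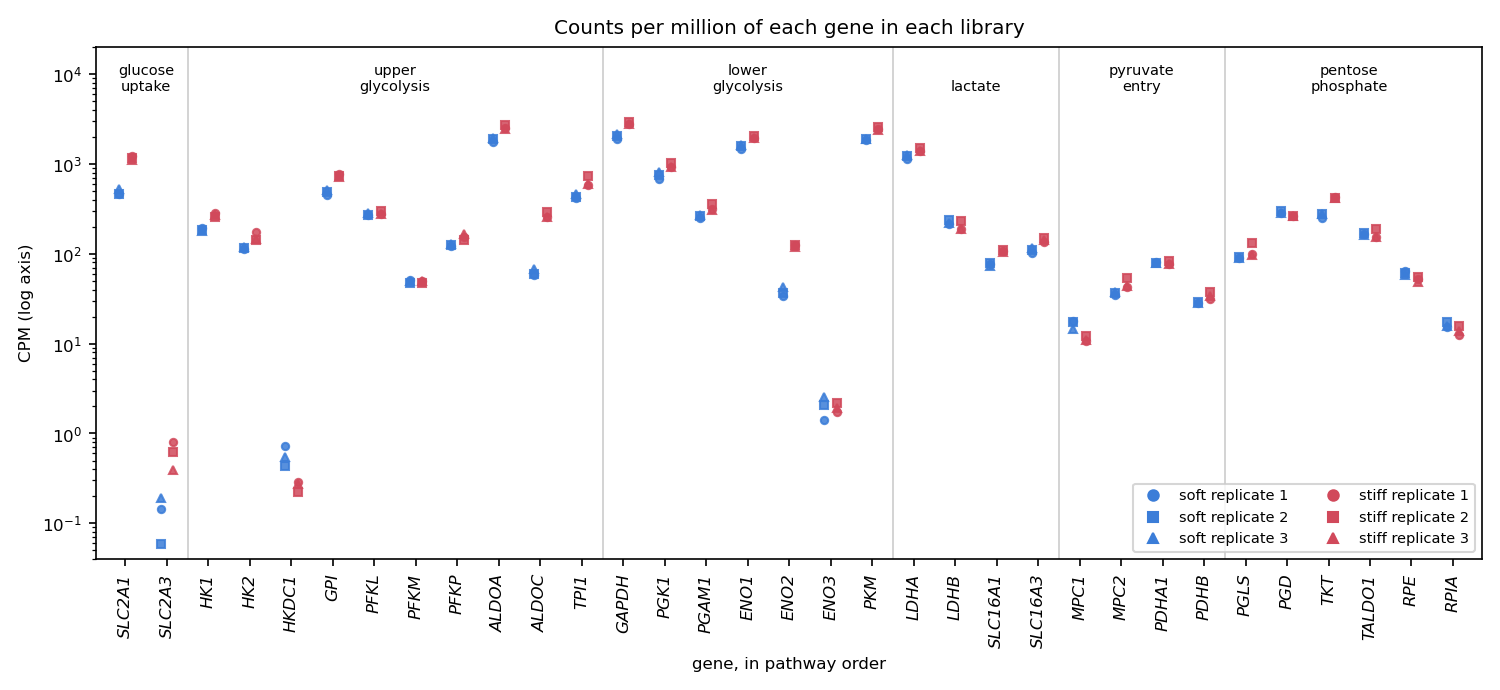
CPM (log axis) of each gene in each of the 6 libraries, with soft in blue, stiff in red and the marker shape giving the replicate number. The ALDOC, ENO2 and SLC2A1 groups are widely separated, SLC2A3, HKDC1 and ENO3 lie at or under a few CPM, and the stiff replicate 2 square is the highest of the stiff points for TPI1, MPC2, PGLS and TALDO1.

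Of the 4 lactate genes, 3 rose (75%, against 25.3% of all genes tested) and LDHB did not pass. LDHA, whose enzyme favours the reduction of pyruvate to lactate, was 1133, 1218 and 1262 CPM in soft and 1398, 1499 and 1396 CPM in stiff. This was the smallest rise among the genes that passed, at 1.19-fold (log2 0.25 ± 0.07, adjusted p = 0.0131), and without soft replicate 1 it no longer passed (adjusted p = 0.0661). LDHB, the heart form that favours the reverse reaction, was 215, 238 and 219 CPM in soft and 189.6, 229 and 188 CPM in stiff. With stiff replicate 2 the groups overlapped (log2 -0.15 ± 0.09, adjusted p = 0.192), and without it LDHB was called lower, with a log2 fold change of -0.25. Both proton-linked lactate transporters rose. SLC16A1 (MCT1), which moves lactate in either direction, was 76.3, 78.3 and 72.8 CPM in soft and 109, 109.7 and 104 CPM in stiff, a 1.42-fold rise (adjusted p = 0.000169). SLC16A3 (MCT4), the low-affinity exporter of glycolytic cells, rose 1.30-fold (adjusted p = 0.00206), from 102, 109.7 and 116 CPM to 135, 149.5 and 142 CPM.

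At pyruvate entry, MPC2 and PDHB rose, MPC1 fell and PDHA1 did not pass, so the pyruvate carrier pair moved in opposite directions. Of these 4 genes 50% were called higher and 25% lower, against 25.3% and 23.8% of all genes tested. MPC1 and MPC2 form the mitochondrial pyruvate carrier as a heterodimer, in which each needs the other. MPC1 fell, from 17.7, 17.6 and 14.4 CPM in soft to 10.6, 12.1 and 11.03 CPM in stiff, which is 1.47-fold lower (log2 -0.56 ± 0.11, adjusted p = 0.00206). MPC2 rose 1.28-fold (log2 0.35 ± 0.10, adjusted p = 0.0128), from 35.0, 37.0 and 37.8 CPM to 43.0, 53.9 and 43.4 CPM, with an adjusted p of 0.0638 without soft replicate 1. The MPC1 groups did not overlap in one direction and the MPC2 groups did not overlap in the other. PDHB, the beta subunit of the pyruvate dehydrogenase E1 enzyme, was 28.4, 28.9 and 28.3 CPM in soft and 31.5, 37.1 and 33.9 CPM in stiff, a 1.20-fold rise (adjusted p = 0.0241) that was lost in 10 of 18 alternative fits, among them those without any 1 of the soft libraries or stiff replicate 3 (adjusted p of 0.0525 to 0.0863). PDHA1, the alpha subunit, was 80.3, 78.3 and 78.0 CPM in soft and 76.4, 82.6 and 77.8 CPM in stiff (log2 0.00032 ± 0.07, adjusted p = 0.998). Exons of MPC2 overlap DCAF6 on the other strand over 22.5% of their bases, and those of PDHA1 overlap MAP3K15 over 21.3%; DCAF6 did not pass the test and MAP3K15 fell 1.39-fold (adjusted p = 0.00691). Whether the counts used strand could not be told, so part of the signal of these pairs may be shared.

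Of the 6 pentose phosphate genes, TKT rose, RPE fell and 4 did not pass. The shares called higher and lower were both 16.7%, against 25.3% and 23.8% of all genes tested. Whether so few genes differ from that background was not tested. TKT encodes transketolase, which links the non-oxidative arm to glycolysis. It was 247, 274 and 280.5 CPM in soft and 425, 416 and 420.1 CPM in stiff, a 1.57-fold rise (log2 0.65 ± 0.07, adjusted p = 4.2e-05), the largest outside glucose uptake, ALDOC and ENO2. TALDO1, the transaldolase that works beside it, was 164, 172 and 163 CPM in soft and 153, 187 and 152 CPM in stiff (adjusted p = 0.864). These TALDO1 values overlapped only through stiff replicate 2, and without that library the gene was called lower (log2 -0.12). RPE, an epimerase of the pentose phosphates, was 64.5, 61.5 and 57.7 CPM in soft and 52.4, 55.5 and 48.8 CPM in stiff, which is 1.17-fold lower (log2 -0.23 ± 0.08, adjusted p = 0.0319). The RPE call was lost without soft replicate 1, soft replicate 2, stiff replicate 1 or stiff replicate 3 (adjusted p of 0.0718 to 0.138), and 23.8% of RPE exon bases overlap KANSL1L on the other strand. RPIA, the isomerase that makes ribose-5-phosphate, was 15.5, 17.3 and 15.9 CPM in soft and 12.3, 15.8 and 13.7 CPM in stiff (adjusted p = 0.121), and it was called lower without stiff replicate 2 (log2 -0.32, adjusted p = 0.00682).

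The oxidative arm was represented by PGLS and PGD, and neither passed. PGLS, a lactonase, was 90.3, 92.4 and 89.8 CPM in soft and 100.3, 133 and 97.2 CPM in stiff. All stiff values were higher (log2 0.28 ± 0.11, adjusted p = 0.0597), but stiff replicate 2 was far above the other stiff libraries, and without it the log2 fold change was 0.12. Without stiff replicate 1 or stiff replicate 3, PGLS was called higher (adjusted p = 0.0404 and 0.0271). PGD, which makes NADPH, was 284, 298 and 287 CPM in soft and 266, 263 and 266 CPM in stiff. Here all stiff values were lower, with a log2 fold change of -0.13 ± 0.06 and an adjusted p of 0.106.

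Added up by reaction and compared per kilobase of the principal transcript (CPM per kb), the steps changed unevenly. Glucose transport had the largest ratio of stiff to soft, 2.40, from 132 ± 10.1 to 318 ± 14.99 CPM per kb (SD, n = 3). Transketolase (1.57), phosphoglucose isomerase (1.55), aldolase (1.502), triosephosphate isomerase (1.46) and hexokinase (1.41) followed, with stiff above soft in every library. Phosphofructokinase, the step after phosphoglucose isomerase, had a ratio of only 1.09, from 155 ± 4.05 to 169 ± 3.29 CPM per kb, though its groups did not overlap either. Lactate dehydrogenase had a ratio of 1.12 and monocarboxylate transport 1.35. The summed pyruvate carrier had a ratio of 1.01 and its groups overlapped, since MPC1 and MPC2 moved in opposite directions. Phosphogluconate dehydrogenase (0.915) and the epimerase (0.853) lay below soft in every stiff library.

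**Figure D3:**
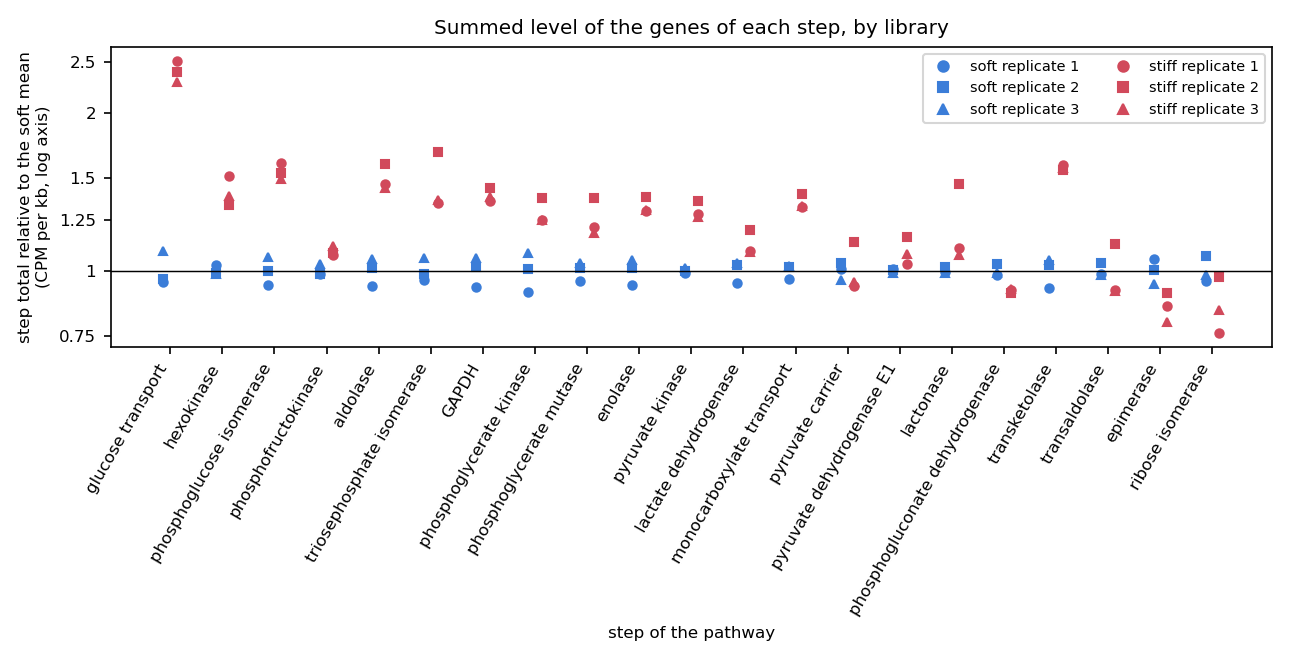
Summed level of the genes of each reaction in each library (CPM per kb of the principal transcript) divided by the mean of the soft libraries, on a log axis, with soft in blue and stiff in red. Glucose transport is at 2.40 on average, phosphofructokinase, lactate dehydrogenase and pyruvate dehydrogenase E1 lie near 1.1, and the pyruvate carrier scatters around 1.

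The minor isoenzymes ALDOC and ENO2 gained share within their families. ALDOC made up 4.06%, 3.90% and 4.27% of the summed aldolase level in soft and 11.7%, 12.2% and 11.7% in stiff (CPM per kb). ENO2 made up 2.05%, 2.08% and 2.33% of the enolases in soft and 5.46%, 5.22% and 5.13% in stiff. In both families the larger gene still held most of the level in stiff, with ALDOA at 88.1% ± 0.26 and ENO1 at 94.6% ± 0.16 (SD, n = 3). LDHB lost share, from 22.6% ± 1.07 to 18.1% ± 1.09, so that the ratio of LDHA to LDHB went from 3.42 ± 0.21 to 4.53 ± 0.32. MPC1 went from 45.2% ± 3.70 of the pyruvate carrier to 30.6% ± 1.40, and the ratio of MPC2 to MPC1 from 1.23 ± 0.19 to 2.27 ± 0.15. PFKP gained share of the phosphofructokinases, from 30.5% ± 0.49 to 34.0% ± 2.36. The ratio of TKT to TALDO1 went from 0.718 ± 0.049 to 1.16 ± 0.14, and that of TKT to PGD from 0.578 ± 0.034 to 0.994 ± 0.008. None of these groups overlapped.

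The shares of HK1 and HK2, of SLC16A1 and SLC16A3, and of SLC2A1 and SLC2A3 overlapped between soft and stiff. With 3 libraries against 3, a 2-sided exact permutation test cannot give a p under 0.1. The shares whose groups did not overlap all had that p, which is 0.173 after adjustment over 19 shares, so these are described values and not calls. Computed from the deposited TPM instead, ALDOC went from 3.997% to 11.6% and ENO2 from 6.69% to 15.3%, while MPC1 went from 17.3% to 10.1%. The direction was the same by both measures, but the levels differed: HK1 was 71.9% of the hexokinases in soft per kilobase and 47.1% in TPM. An order between isoenzymes therefore holds only where both measures give it.

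**Figure D4:**
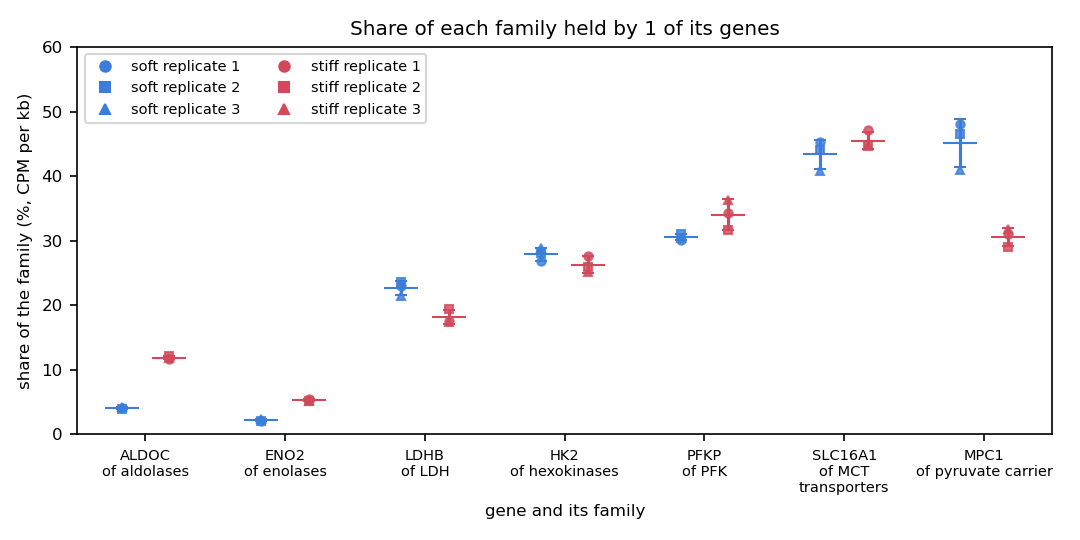
Share of a family's summed level held by 1 of its genes (y axis, %, from CPM per kb), with each library as a point, the mean as a line and the SD as the bar (n = 3). ALDOC and ENO2 rise without overlap, LDHB and MPC1 fall without overlap, and HK2 and SLC16A1 overlap between soft and stiff.

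A core of the hypoxia response element was no more frequent near the start site of the genes that rose than of all genes tested. It was in 10 of the 19 that rose and had a promoter sequence (52.6%), against 54.3% of the promoters of genes tested. Windows of several genes that rose are shown, with those of MPC1, which fell, beside them. None is shown of the genes that did not pass, of which 55.6% held a core. The hypoxia response element is bound by hypoxia-inducible factors. Its core is ACGTG or GCGTG on either strand (CACGT or CACGC on the opposite one). RefSeq promoters of GRCh38.p14 were found for 31 of the 33 genes, not for SLC2A3 and SLC16A1. The 250 bases before the listed start site of each gene were searched, and no alternative start site was. For some genes, among them GAPDH, GPI, PGAM1 and SLC16A3, the searched bases lie inside the RefSeq span of the gene. The GAPDH span begins at chr12:6534517 and its searched bases at chr12:6535014. The windows below are read from 5′ to 3′ along the gene's strand, with the matched cores in capitals and positions counted from the start site.
ALDOC -250 to -221: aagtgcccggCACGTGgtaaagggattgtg
ALDOC -121 to -92: cccgcctctgaggGCGTGgtcttgccccgg
ALDOC -49 to -20: aggcCACGCccccggaggagtCACGTagct
ENO2 -131 to -102: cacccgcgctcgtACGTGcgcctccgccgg
GAPDH -93 to -64: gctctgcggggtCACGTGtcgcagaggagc
PGK1 -219 to -190: ggttcgcgGCGTGccggACGTGacaaacgg
LDHA -197 to -168: agactcccagcgCACGTGgagcagtctgcc
LDHA -93 to -64: gactcaCACGTGggttcccgCACGTccgcc
HK2 -64 to -35: agccaatggGCGTGcgCACGTcactgatcc
MPC1 -175 to -146: gggcgggaaggagGCGTGcggcacgagcca
MPC1 -83 to -54: gcgcggccgtaagGCGTGgccgggtgtcgt

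The ALDOC windows lie on the minus strand at chr17:28577116-28577145, chr17:28576987-28577016 and chr17:28576915-28576944, and the ENO2 window on the plus strand at chr12:6914449-6914478. Those of GAPDH (chr12:6535171-6535200), PGK1 (chrX:78104029-78104058), LDHA (chr11:18394366-18394395 and chr11:18394470-18394499) and HK2 (chr2:74834063-74834092) are on the plus strand, and those of MPC1 (chr6:166383086-166383115 and chr6:166382994-166383023) on the minus strand. ACGTG was found on either strand in 10 of the 31 promoters (32.3%). It was in 18.7% of 27305 RefSeq promoters of the same length and in 22.5% of those of genes tested here. By call, it was in 9 of the 19 promoters of genes that rose (ALDOA, ALDOC, ENO2, GAPDH, GPI, HK2, LDHA, PDHB and PGK1), in 0 of the 3 of genes that fell and in 1 of the 9 that did not pass. GCGTG had another split, with 5 of 19, 1 of 3 (MPC1) and 5 of 9 (ENO3, PDHA1, PFKL, PGD and RPIA). Either core was found in 10 of 19, 1 of 3 and 5 of 9, so genes that rose and genes that did not pass held a core in similar shares (52.6% and 55.6%). Over the 31 promoters, either core was in 51.6%, against 43.1% of all RefSeq promoters and 54.3% of those of genes tested here. GCGTG was found in 35.5% of the 31 promoters, which is above the 31.9% of all but below the 42.5% of those of genes tested. The palindrome CACGTG, which holds ACGTG on both strands, was in 12.9% of the 31 and 6.49% of all RefSeq promoters. Over all genes tested with a promoter, ACGTG was in 21.1% of those called higher and 24.2% of those called lower. The 31 promoters had a median of 69.6% G and C, against 64% for all genes tested. These matches describe letters in a window, not binding. SLC2A1, which rose 2.40-fold, had none of these cores in its window.

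The genes around the pathway did not move as a block. Of all genes tested, 25.3% were called higher and 23.8% lower. Of 10 other glucose and monocarboxylate transporters and partners tested, SLC2A8 rose 1.22-fold (adjusted p = 0.0408) and SLC2A13 1.603-fold (adjusted p = 0.0142), and SLC2A6 fell 1.43-fold (adjusted p = 0.000784). The SLC2A8 call was lost without soft replicate 2 or 3 or stiff replicate 1 or 3 (adjusted p up to 0.162), and that of SLC2A13 without soft replicate 1 or 2 or stiff replicate 1 (up to 0.0668). BSG, the chaperone of MCT1 and MCT4, was 628 ± 28.1 CPM in soft and 703 ± 42.2 in stiff and did not pass (adjusted p = 0.082). Among 11 other glycolytic isoenzymes tested, LDHD, a D-lactate dehydrogenase of mitochondria, rose 2.08-fold, ADPGK, a hexokinase that uses ADP, fell 1.36-fold, and 9 did not pass.

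Fructose-2,6-bisphosphate is the strongest activator of phosphofructokinase. Of the 5 genes that set it, 2 rose (40%) and 1 fell (20%), against 25.3% and 23.8% of all genes tested. PFKFB4 went from 4.06 ± 0.29 to 10.8 ± 0.31 CPM, a 2.67-fold rise (log2 1.42 ± 0.11, adjusted p = 5.98e-06), and PFKFB2 rose 1.34-fold. TIGAR, which breaks the compound down, fell 1.495-fold (adjusted p = 0.00338). PFKFB3, an inducible kinase that makes it, was 86.8 ± 4.22 in soft and 91.7 ± 5.89 in stiff and did not pass (adjusted p = 0.398).

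Of the 9 tested genes of the pyruvate dehydrogenase complex and its control, 3 rose and 3 fell. Both shares were 33.3%, against 25.3% and 23.8% of all genes tested. PDK1 and PDK3 encode kinases that switch the complex off: PDK1 rose 1.503-fold, from 72.6 ± 3.06 to 109 ± 6.80 CPM (log2 0.59 ± 0.07, adjusted p = 0.000118), and PDK3 rose 1.29-fold (adjusted p = 0.0069). PDP2, a phosphatase that switches it on, also rose, by 1.30-fold (adjusted p = 0.00405). DLD, the E3 subunit, fell 1.32-fold (adjusted p = 0.00124). DLAT, the E2 subunit, and PDPR, a regulator of the phosphatase, were the other genes that fell, and DLAT lost its call without soft replicate 1 or 2 or stiff replicate 1 or 3 (adjusted p up to 0.101). PDK2 did not pass (22.3 ± 2.17 against 21.7 ± 1.24 CPM), and PDK4 had 1 fragment in each condition and was not tested. Of 6 other pentose phosphate and ribose phosphate genes tested, SHPK, a sedoheptulose kinase, rose 1.43-fold and H6PD, the dehydrogenase of the endoplasmic reticulum, fell 1.55-fold.

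Transcription factors and sensors that act on these genes were mixed, with 5 of 13 higher (38.5%) and 4 lower (30.8%). Over all genes tested, these shares were 25.3% and 23.8%. EPAS1, called 1.23-fold higher though its groups overlapped, lost its call without soft replicate 2 or 3 or stiff replicate 1 or 3 (adjusted p up to 0.0958). MLXIPL, also higher, lost it without soft replicate 1 or 2 or stiff replicate 3 (up to 0.104). Among the lower, MLXIP lost its call without soft replicate 1 (adjusted p = 0.088). HIF1AN lost it without any 1 library other than stiff replicate 2 (up to 0.165). TXNIP, which restrains glucose uptake and is itself induced by glucose, rose 1.52-fold, from 2150 ± 159.9 to 3274 ± 41.9 CPM (adjusted p = 8.55e-05), and its relative ARRDC4 rose 2.34-fold. EGLN3, an oxygen-sensing prolyl hydroxylase that hypoxia induces, rose 2.40-fold, and EGLN1 fell 1.29-fold. The mRNA of HIF1A, a factor controlled mainly through protein stability, was 801 ± 52.7 CPM in soft and 773 ± 111 in stiff and did not pass (adjusted p = 0.701). MYC fell 1.21-fold (122 ± 10.3 to 101 ± 7.04 CPM, adjusted p = 0.018), but not without soft replicate 2 or stiff replicate 1 (adjusted p = 0.0879 and 0.0716). Among 8 hypoxia-responsive genes outside glycolysis, 5 rose (62.5%) and 0 fell, against 25.3% and 23.8% of all genes tested. ADM, VEGFA and KDM3A did not pass. Without stiff replicate 2, KDM3A was called higher and VEGFA lower, and without stiff replicate 3, ADM was called higher. NDRG1 rose 2.77-fold, CA9, which makes bicarbonate outside the cell, 2.51-fold, and P4HA1, a collagen hydroxylase, 2.09-fold.

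Genes known as markers of other cell types were also followed, though every library came from the Cal27 line. Of the fibroblast list, 3 of 5 tested genes (LUM, ACTA2 and COL1A1) were higher in stiff, and the summed level was 78.5 to 85.03 CPM in soft and 107 to 113 CPM in stiff, with DCN not tested at 2 and 21 fragments. COL1A1 kept its call only in the fit that left out stiff replicate 2 (adjusted p up to 0.189 in the others that left out a library). The endothelial list summed to 1.74 to 2.05 CPM in soft and 3.20 to 4.10 CPM in stiff, with VWF higher and KDR at 2 and 0 fragments. The leukocyte list summed to 50.2 to 54.8 CPM in soft and 32.1 to 40.2 CPM in stiff, nearly all of it CD14, while PTPRC had 1 and 4 fragments. The part of these markers in the results was not tested.

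Stiff replicate 2 differed from the other stiff libraries in step with transcript length, and in the pathway this was seen mainly in the shorter genes. Over all genes, median log2 CPM relative to the mean of the 6 libraries also followed length in soft. In the shortest quartile it was -0.090, -0.014 and -0.063 in soft and 0.006, 0.208 and 0.020 in stiff. In the longest it was 0.095, 0.031 and 0.078 in soft and 0.017, -0.207 and -0.0016 in stiff. These values share 1 mean, so each depends on the others. Leaving out stiff replicate 2 need not remove the whole trend. For the 11 genes in the shortest quartile of length, this library was the highest of the stiff libraries in 10, with a median log2 difference of 0.26 from the mean of the other stiff libraries. In the second quartile it was highest in 9 of 11, with a median of 0.09, in the third in 3 of 9, with a median of -0.0015, and in the longest in 1 of 2, PGK1 but not HK2. Without stiff replicate 2, 21 of the 33 genes were called higher and 5 lower, with RPIA, TALDO1 and LDHB added to those that fell and HKDC1 lost. With each library's trend on length removed, 20 were called higher and 7 lower: PGD, RPIA, TALDO1 and LDHB joined the genes that fell, and PDHB no longer passed as higher. With that trend removed, 4531 of all 15749 genes tested were called higher and 4446 lower. Without stiff replicate 2, 5379 of all 19053 were higher and 5224 lower. In both fits the share of the 33 called lower lay nearer that of all genes than in the main fit. SLC2A1, ALDOC and ENO2 changed by 2-fold or more in each of these fits.

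**Figure D5:**
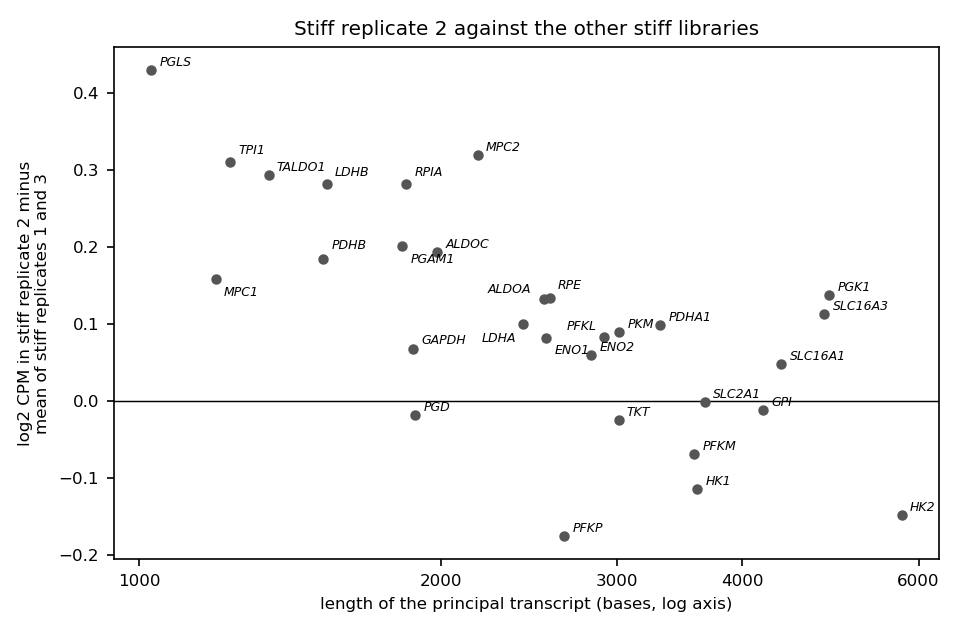
Log2 CPM in stiff replicate 2 minus the mean of stiff replicates 1 and 3 (y axis) against the length of the principal transcript in bases (log x axis) for the 30 genes averaging 5 CPM or more. Short genes such as PGLS, TPI1 and TALDO1 lie above 0, while long ones lie on both sides, with HK1, HK2 and PFKM below 0 and PGK1, SLC16A1, SLC16A3 and PDHA1 above it.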

How the data were processed

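The deposited counts are whole fragments per gene symbol, not normalized, and each library also has a deposited table of TPM from the authors, rounded to 1 decimal. Per the submitters' processing notes, reads were handled with STAR 2.6.1e and featureCounts 1.6.2 on hg38, besides cutadapt 1.9.1, Trim Galore 0.4.2 and FastQC 0.11.7. For the annotation, the strand setting and multiply matching reads, the sources used here give nothing. TALAM1, antisense to MALAT1, had 92.7% to 94.3% of its count, so strands were treated as not told apart.

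Stiff was tested against soft with edgeR 4.0.16 (quasi-likelihood F test, TMM factors, filterByExpr with a minimum count of 10, no covariate) in R 4.3.3, over 18676 genes. Alternatives were DESeq2 1.42.0, other scalings and filters, robust dispersion, limma 3.58.1 on log2(TPM + 1) and log2(TPM + 0.1) for a mean TPM of at least 1 or unfiltered, the replicate block and each library left out. Removing each library's lowess trend (span 0.3) on transcript length was added after seeing the data. CPM are relative to TMM-scaled library size. Levels of different genes were compared per kilobase of the GENCODE release 29 principal transcript, not in TPM as planned, a change made after seeing the data: across 7782 genes, the length the TPM imply correlated (log scale) at 0.946 with the longest transcript times the number of RefSeq transcripts and at 0.818 with the principal transcript. In simulated counts over 18676 genes for stiff against soft, 50 genes were changed at each of 4 fold sizes. There edgeR found 12% of 1.25-fold changes, 62% of 1.5-fold, 70% of 2-fold and 98% of 4-fold ones, and 9.02% of its calls were false. In the data 9171 genes were called, far more than were changed in the simulation, so these rates need not hold for this comparison.

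All 33 genes matched RefSeq (GRCh38.p14), which supplied promoters. Every gene of the 33 is named. From each other list, up to 4 genes with the smallest p were named, with PDK1 to PDK4, PFKFB3, PFKFB4, TXNIP, HIF1A and MYC always. DLAT, PDPR, ADM, VEGFA, KDM3A, EPAS1, MLXIPL, MLXIP, HIF1AN and marker genes were added after their values were seen. The genes and lists were chosen with earlier results of these data known. Pairs of libraries within a group differed by more than sampling noise (chi-square divided by its degrees of freedom was 3.39 to 33.4, the highest with stiff replicate 2).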

Additional observations from a re-analysis of the deposited data

How the results depend on the processing

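Of the 33 genes, 21 kept the same call in each of the 18 alternatives that tested them, and none of their called changes reversed sign; of the single-gene values under these alternatives, 529 kept their direction and side of the threshold, 26 gained a call and 31 lost one. The count of genes called higher was 22 with DESeq2, without the count filter and with the replicate number as a block, 20 with library size alone, with the 1 CPM filter and with the length trend removed, and 16 to 17 with limma on the deposited TPM. The count called lower, 3 in edgeR, was 5 with limma on log2(TPM + 1) or log2(TPM + 0.1), 6 on log2(TPM + 1) without a filter, and 7 with the length trend removed, with or without the replicate block. Leaving out each library in turn gave 17 to 22 higher and 1 to 5 lower. The lowest count, 17 higher and 1 lower, came without soft replicate 1, when MPC2, PDHB, PFKP, LDHA, RPE and HKDC1 lost their calls. A single lower gene was also left without stiff replicate 1 or stiff replicate 3, and 5 without stiff replicate 2. HKDC1 was not called by DESeq2, and limma on TPM did not call HK2, PFKP and PDHB, nor LDHA on log2(TPM + 1), while it called PGD, RPIA and LDHB lower. Among the other genes named, PFKFB2, PDK3, PDP2 and PDPR lost their calls in limma. Outside the 33, the called fall of HIF1AN (log2 -0.20), an asparaginyl hydroxylase among the regulators, became 0.0017 with the length trend removed and 0.000299 with the block as well. The cause of these changes was not tested.

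Over all genes, 4722 were called higher by edgeR, and 2880 and 2831 by limma on log2(TPM + 1) and log2(TPM + 0.1) and 3138 on log2(TPM + 1) without the filter. The share of calls that were higher was 51.5% in edgeR, 44.7% with library size alone and 41.3% to 43.3% in limma. The median log2 fold change of all genes moved by -0.11 on the log2(TPM + 0.1) scale, and by -0.06 with library size alone.

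The replicate block gave 22 higher and 3 lower of the 33 genes, adding PGLS. Deviations of same-numbered libraries correlated across genes at 0.073, 0.216 and 0.050, not all above 0.1, and soft replicate 1 correlated best with stiff replicate 3 (0.077), so the numbers were not taken to pair the libraries. Of 19 isoenzyme shares, 0 moved by more than 1 SD when a library was left out, 6 did per kilobase in place of TPM, and 10 without any length scaling. SLC2A3, HKDC1 and ENO3, with 14 to 208 fragments per condition, are limited by depth.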

Other observations

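Genes that feed or drain the same metabolites outside the 33 were also measured. Of the 5 tested genes of gluconeogenesis and anaplerosis, PC rose, PCK2 and G6PC3 fell, and FBP1 and FBP2 did not pass. PCK2, the mitochondrial enzyme that makes phosphoenolpyruvate from oxaloacetate, was 92.1, 97.4 and 87.6 CPM in soft and 17.4, 21.9 and 18.6 CPM in stiff, which is 4.79-fold lower (log2 -2.26 ± 0.10, edgeR adjusted p = 2.06e-07). PC, which carboxylates pyruvate to oxaloacetate in mitochondria, was 19.7, 20.6 and 17.8 CPM in soft and 49.6, 43.6 and 47.4 CPM in stiff, a 2.42-fold rise (log2 1.27 ± 0.09, adjusted p = 2.36e-06). PCK1, the cytosolic partner of PCK2, had 0 fragments in every library, which allows up to 3 in each by counting error alone.

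Of 15 genes of glycogen and side branches, 6 rose, 4 fell and 5 did not pass, against 25.3% and 23.8% of all genes. PYGB, the brain-type glycogen phosphorylase, was 186 ± 7.79 CPM in soft and 94.4 ± 3.25 in stiff (SD, n = 3), which is 1.97-fold lower (adjusted p = 2.26e-06). GBE1, the glycogen branching enzyme, rose 1.40-fold (adjusted p = 0.000528). Within the polyol pathway the enzymes moved apart, with AKR1B1, which reduces glucose to sorbitol, 1.45-fold higher (adjusted p = 0.00181) and SORD, which oxidises sorbitol to fructose, 1.30-fold lower (adjusted p = 0.000771).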
